A study of Arabidopsis thaliana with 8 samples.

Results

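The 21-nucleotide (nt) small RNAs of transposable elements (TEs) were compared between Arabidopsis endosperm with no functional copy of NRPD1 and endosperm whose only functional copy came from the father. NRPD1 is the largest subunit of RNA polymerase IV (Pol IV), and the endosperm is the triploid seed tissue that receives 2 chromosome sets from the mother and 1 from the father. The nrpd1-/- libraries (3 replicates) came from a Ler nrpd1-/- mother pollinated by a Col-0 nrpd1-/- father. The mat nrpd1+/- libraries (3 replicates) came from a mother of the same mutant Ler line pollinated by wild-type Col-0, so that 1 of 3 copies, the paternal one, was functional. Every seed of both groups therefore had a homozygous mutant mother and lacked functional maternal copies. The mutant allele carries a T-DNA that was inserted into the Col-0 genome. Ler mothers obtained it by repeated backcrosses, so they may keep Col-0 sequence around the locus. Endosperm was dissected 7 days after pollination, and seeds were pooled within a library. Of the 8 libraries of the series, 6 enter here, and the 2 libraries with functional maternal copies only do not.

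The 21-nt tables list 27104 TE insertions, each named by its identifier and its family, in 319 families. At least 1 read fell in 22127 of them over the 6 libraries, in 13279 over the nrpd1-/- libraries and in 21449 over the mat nrpd1+/- libraries, and 4977 had none. The tables hold no transcript of NRPD1 and no gene that marks endosperm or seed coat, so the tissue could not be checked here, and the genotype labels were read against 24-nt reads in TEs, the size class that Pol IV makes. These came to 31437 ± 4696 RPM (reads in every 1000000 quality-filtered reads of the library) in nrpd1-/- and 244437 ± 8281 RPM in mat nrpd1+/- (SD, n = 3 each), a 7.78-fold lower level without NRPD1.

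Pol IV transcribes short precursors that are copied into double-stranded RNA by RDR2 and cut by DCL3 into 24-nt small interfering RNAs, which guide DNA methylation to TEs. Small RNAs of 21 nt are the typical product of DCL1 (microRNAs) and DCL4, and at TEs they can arise from transcripts of Pol II or of Pol IV. DNA transposons (VANDAL and other Mutator-like elements, En/Spm, hAT, Harbinger) move as DNA, helitrons by rolling-circle replication, and Gypsy, Copia, LINE and SINE elements through an RNA copy. Many copies in a genome are short remnants that cannot move by themselves.

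Reads that fit several copies equally well were placed at 1 of them, so a value for a single insertion depends on how far its sequence is shared. The sequences of insertions that carried the main results are shown for this reason, read from the TAIR10.1 assembly on the plus strand, 5′ to 3′. The first set holds the 5 ATDNA12T3_2 copies of 64 bp that stood among the 8 insertions with the largest rise in nrpd1-/-. This ranking took only called insertions with a mean of at least 20 reads and no overlap between groups, and copies with fewer reads had larger fitted rises. Capitals mark bases that differ from AT3TE58340.
AT3TE58340: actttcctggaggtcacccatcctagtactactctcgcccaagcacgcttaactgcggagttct
AT3TE56315: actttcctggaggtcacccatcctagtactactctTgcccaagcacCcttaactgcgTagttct
AT5TE45275: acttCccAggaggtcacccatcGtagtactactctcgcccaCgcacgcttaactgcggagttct
AT3TE58425: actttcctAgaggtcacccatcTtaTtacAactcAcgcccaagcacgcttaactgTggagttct
AT3TE55680: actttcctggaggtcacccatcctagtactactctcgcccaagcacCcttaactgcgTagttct
They lie at chr3:14208338-14208401 (AT3TE58340), chr3:13769211-13769274 (AT3TE56315), chr5:12809301-12809364 (AT5TE45275), chr3:14218180-14218243 (AT3TE58425) and chr3:13701631-13701694 (AT3TE55680), and the other 4 differ from AT3TE58340 at 2 to 6 bases.

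The second set contrasts 4 other insertions, with capitals on bases that lie in a 21-mer found more than once in the genome. AT2TE13535 (chr2:3132842-3132902, 61 bp) was the only ATDNA12T3_2 copy under 100 bp called lower. It was chosen for display after its values were seen. AT1TE45650 (HELITRONY3A, chr1:13908020-13908132, 113 bp) and AT2TE24225 (ATREP1, chr2:5942205-5942387, 183 bp) are helitron insertions that had no 21-nt read without NRPD1. AT3TE63870 (ATGP6, a Gypsy family) has the highest mean level over the 6 libraries through its reads in nrpd1-/-, and its first 300 of 940 bp are given (chr3:15797694-15797993).
AT2TE13535: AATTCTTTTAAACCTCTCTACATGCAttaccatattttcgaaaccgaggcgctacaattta
AT1TE45650: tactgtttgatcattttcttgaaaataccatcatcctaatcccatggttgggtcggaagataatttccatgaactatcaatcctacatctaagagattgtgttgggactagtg
AT2TE24225: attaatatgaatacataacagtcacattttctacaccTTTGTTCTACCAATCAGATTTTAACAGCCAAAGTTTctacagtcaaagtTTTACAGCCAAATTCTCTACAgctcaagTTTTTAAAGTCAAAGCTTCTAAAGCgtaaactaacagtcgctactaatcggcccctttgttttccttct
AT3TE63870: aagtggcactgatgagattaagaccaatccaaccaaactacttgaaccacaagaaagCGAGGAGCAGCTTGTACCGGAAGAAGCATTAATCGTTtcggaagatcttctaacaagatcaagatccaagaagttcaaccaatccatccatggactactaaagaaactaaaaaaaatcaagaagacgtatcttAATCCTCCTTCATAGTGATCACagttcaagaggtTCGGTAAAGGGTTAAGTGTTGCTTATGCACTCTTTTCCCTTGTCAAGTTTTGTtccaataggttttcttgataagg
AT1TE45650 holds no repeated 21-mer, whereas 82 of the 183 bases of AT2TE24225 and 112 of the 300 bases of AT3TE63870 lie in one. The short ATDNA12T3_2 copy that fell, AT2TE13535, has 26 such bases.

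The total of 21-nt reads in TEs was lower in the absence of NRPD1. The nrpd1-/- libraries held 78095, 97872 and 84360 such reads, or 9679, 13273 and 11953 RPM, and the mat nrpd1+/- libraries 546744, 498694 and 382239 reads, or 25802, 25889 and 23026 RPM. The groups did not overlap. The means were 11635 ± 1818 RPM in nrpd1-/- and 24906 ± 1628 RPM in mat nrpd1+/- (SD, n = 3 each), a 2.14-fold lower level (2-sided exact permutation p = 0.1, the smallest that 3 against 3 libraries allow). The 24-nt level fell further, so that there were 3.25, 2.72 and 2.24 reads of 24 nt for each 21-nt read in nrpd1-/- TEs, against 9.40, 9.79 and 10.3 in mat nrpd1+/- TEs.

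The scale matters here, because other classes of small RNA moved with genotype too. Genic 22-nt reads came to 30659 ± 3557 RPM in nrpd1-/- and 11358 ± 975 RPM in mat nrpd1+/-, and reads in mature microRNA entries of the 24-nt gene tables to 3509 ± 632 RPM in nrpd1-/- and 923 ± 92.9 RPM in mat nrpd1+/-. Relative to the genic 22-nt reads, the 21-nt TE level of nrpd1-/- was 25.7% ± 4.98 of the mat nrpd1+/- mean, against 100% ± 2.91 in mat nrpd1+/- itself. Relative to the microRNA entries it was 12.5% ± 3.37 in nrpd1-/-, against 100% ± 15.6 in mat nrpd1+/- (exact permutation p = 0.1 each). Whether those classes themselves changed per cell, or only as a share of libraries with fewer 24-nt reads, was not tested. It is not stated for the microRNA entries whether only 24-nt reads were counted, so they need not measure microRNAs of 21 nt. In pooled endosperm, fewer cells that make a small RNA and less of it per cell cannot be told apart.

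**Figure D1:**
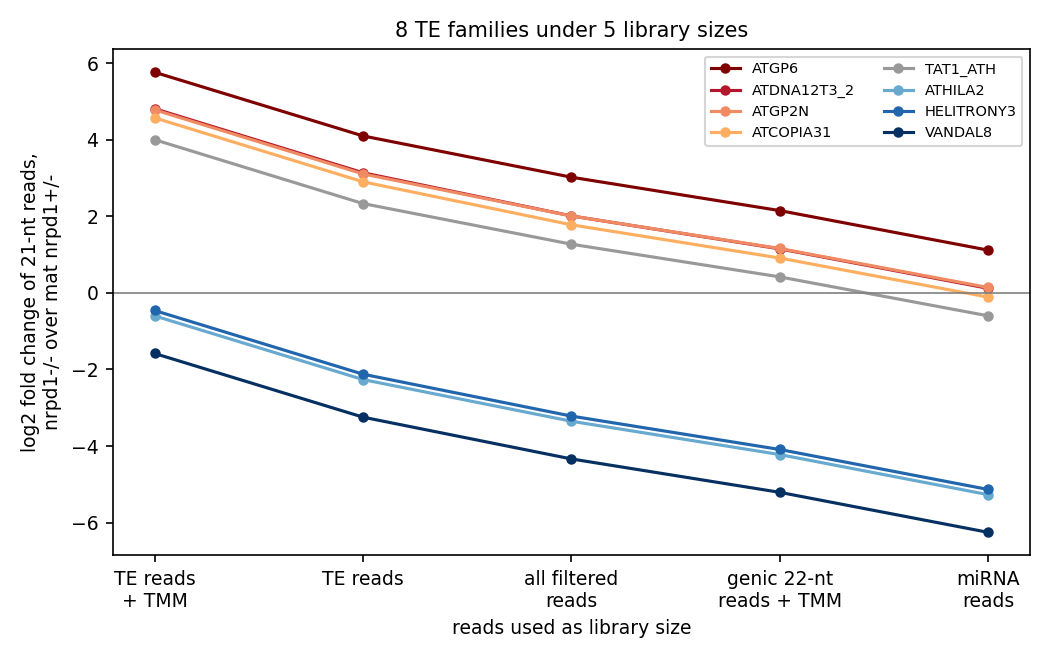
Log2 fold change of 21-nt reads (nrpd1-/- over mat nrpd1+/-, y axis) of 8 named families under 5 choices of reads as library size (x axis), each line being 1 family. ATGP6 stays above 0 throughout, with 5.76 on TE reads with TMM factors and 1.12 on reads in microRNA entries, and VANDAL8, ATHILA2 and HELITRONY3 stay below 0, whereas TAT1_ATH and ATCOPIA31 cross it.

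Most tested insertions lost 21-nt reads without NRPD1, and a small set gained them. After a filter on low counts, 5283 insertions were tested with edgeR's quasi-likelihood test, and a call required an adjusted p of at most 0.05 and at least a 2-fold difference. Fewer reads were found in nrpd1-/- at 4636 insertions (87.8% of those tested) and more at 444 (8.4%), and 203 were not called. The nrpd1-/- libraries lay wholly below the mat nrpd1+/- libraries at 4673 insertions (88.5%) and wholly above them at 447 (8.46%). The median log2 fold change was −3.27, or −3.20 with the 263 insertions without a read in nrpd1-/- set at the bound that 3 reads over the group allow. The filter shaped these shares: its minimum of 0.811 RPM was reached in every nrpd1-/- library alone at 212 insertions, in every mat nrpd1+/- library alone at 4455 and in all 6 libraries at 582. The 21821 untested insertions held 8.72% of the 21-nt TE reads in nrpd1-/- and 14.9% in mat nrpd1+/-.

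The split between lower and higher calls depended on the library size. The calls above were 8.74% higher ones. With library sizes taken from the TE reads themselves and TMM factors, 807 insertions were lower and 1150 higher (58.8% of calls), and with DESeq2 and its own size factors 1554 were lower and 1495 higher (49.0%). Over the insertions tested both ways, those scalings moved the log2 fold change by a median of 2.74 (TMM factors, 4586 insertions) and 2.10 (DESeq2, 5283 insertions). The DESeq2 count also covers insertions under the filter on low counts, 22127 in all. All 444 higher calls were made again under both, and of the 4636 lower calls 807 with TMM factors and 1501 with DESeq2, whereas 181 insertions called lower became higher with TMM factors and 22 with DESeq2. On genic 22-nt reads 5426 insertions were lower and 328 higher, and on microRNA entries 6124 were lower and 31 higher.

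**Figure D2:**
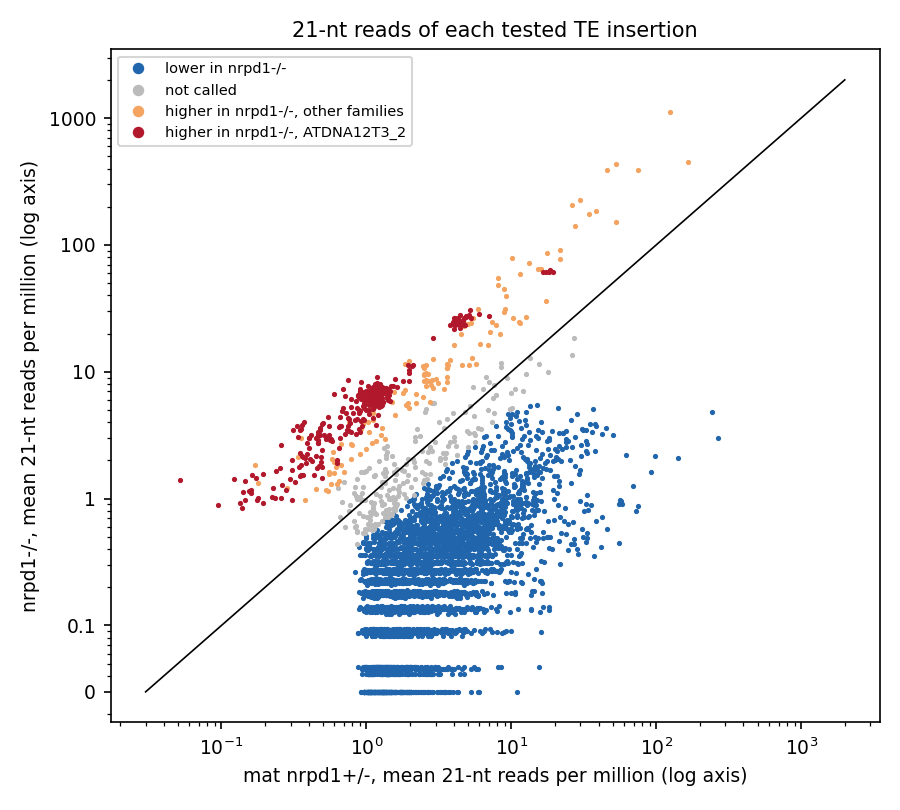
Mean 21-nt RPM of each tested insertion in mat nrpd1+/- (x axis) and in nrpd1-/- (y axis), both on log axes, with values of 0 in nrpd1-/- drawn at the bottom and labelled 0, and the diagonal marking equal levels. The 4636 lower insertions lie under the diagonal and the 444 higher ones above it. ATDNA12T3_2 copies form dense groups above the diagonal.

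The reads that were left gathered in few insertions. The 10 most abundant insertions of a library held 27.8 to 35.2% of the 21-nt TE reads in nrpd1-/- and 5.31 to 5.71% in mat nrpd1+/-, and the 100 most abundant 54.9 to 58.1% in nrpd1-/- and 17.1 to 17.6% in mat nrpd1+/-. Over the group, insertions called higher held 71.3% of the reads in nrpd1-/- and 6.61% in mat nrpd1+/-. Insertions called lower held 15.7% of the reads in nrpd1-/- and 76.0% in mat nrpd1+/-. The calls were made on these same reads, so the direction of both contrasts was fixed in advance and only their size is described. Rank correlations between replicates were 0.813 to 0.840 in nrpd1-/- (720 to 803 insertions with enough reads) and 0.899 to 0.921 in mat nrpd1+/- (7386 to 8060). Chi-square per degree of freedom, which sets the spread of 2 replicates against counting noise, was 5.02 to 7.34 in nrpd1-/- and 1.21 to 1.36 in mat nrpd1+/-. The nrpd1-/- libraries thus differed from each other by more than counting noise. The insertions used and their read counts were not the same in both groups, so these values do not compare the agreement of replicates between genotypes.

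The 24-nt reads of the same insertions, which the 21-nt test did not use, were set beside these calls. Over all 13735 insertions tested at 24 nt, 13555 were lower (98.7%) and 48 higher (0.349%), with a median log2 fold change of −5.33. Every one of the 4636 insertions with fewer 21-nt reads was also called lower at 24 nt, with a median of −5.59. Of the 444 insertions with more 21-nt reads, 198 had enough 24-nt reads to be tested, and of these 80 were lower, 32 higher and the median was −0.60. Of the 203 insertions not called at 21 nt, 194 were lower at 24 nt and 1 higher.

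Insertions with more and with fewer 21-nt reads differed in length and in place. The median length was 64 bp for the higher and 1666 bp for the lower ones, against 1468 bp for all tested. GC content had a median of 50% in the higher and 36.5% in the lower ones, and the median share of 21-mers repeated in the genome was 100% in the higher and 45.9% in the lower ones. Of the 444 higher insertions 247 were on chromosome 3 (55.6%, against 23.8% of the tested) and 110 on chromosome 5 (24.8%, against 20.5%). A single family made up most of this difference, since 316 of the 444 (71.2%) were ATDNA12T3_2 copies. The other 128 belonged to 49 families, had a median length of 1089 bp and lay as 23, 26, 35, 24 and 20 on chromosomes 1 to 5. Of these 128, 65 (50.8%) overlapped an annotated pseudogene, close to the 49.1% of all tested insertions, and 54 overlapped no annotated gene.

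Summed by family, the losses were as widespread. Of 312 tested families 278 (89.1%) were lower in nrpd1-/-, 6 (1.92%) were higher and 28 were not called, with a median log2 fold change of −2.53. The libraries of nrpd1-/- lay below all those of mat nrpd1+/- for 288 families (92.3%) and above them for 10 (3.21%). With TMM factors over TEs 19 families were lower and 72 higher, and with DESeq2 70 were lower and 40 higher.

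After the rare Copia family ATCOPIA53, the largest falls among the families with enough reads to be named were in DNA transposons. VANDAL18, a Mutator-like family, had 4.83, 8.14 and 6.09 RPM in nrpd1-/-, against 202, 182 and 177 RPM in mat nrpd1+/- (29.4-fold lower, log2 −4.88 ± 0.27 SE, adjusted p = 3.90e-61). HARBINGER had 5.70, 8.14 and 8.08 RPM in nrpd1-/-, against 215, 213 and 192 RPM in mat nrpd1+/- (28.4-fold lower, log2 −4.83 ± 0.27, adjusted p = 9.41e-61). No library of either genotype came near the other group in these families. Without their most abundant insertions they were still 20.5-fold (VANDAL18) and 25.8-fold (HARBINGER) lower. SIMPLEHAT2 had 4.59, 7.87 and 4.82 RPM in nrpd1-/-, against 125, 139 and 119 RPM in mat nrpd1+/- (log2 −4.47 ± 0.27, adjusted p = 3.20e-55). SIMPLEGUY1 had 7.31, 11.3 and 8.93 RPM in nrpd1-/-, against 182, 193 and 173 RPM in mat nrpd1+/- (log2 −4.32 ± 0.26, adjusted p = 3.41e-53). These are short non-autonomous families with many copies. All 29 tested insertions of SIMPLEHAT2 and all 54 of SIMPLEGUY1 were lower, against 87.8% of all tested insertions, and every one of them passed the filter through mat nrpd1+/- alone, so the counts add little to the family sums. At 24 nt the means of VANDAL18, HARBINGER, SIMPLEHAT2 and SIMPLEGUY1 were 16.8 to 35.6 RPM in nrpd1-/- and 1124 to 2085 RPM in mat nrpd1+/-.

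VANDAL8, another Mutator-like family, had much of its reads from a single insertion. It had 27.6, 44.2 and 31.5 RPM in nrpd1-/-, against 707, 724 and 655 RPM in mat nrpd1+/- (20.2-fold lower, log2 −4.34 ± 0.27 SE, adjusted p = 1.13e-51). The insertion AT3TE63215 (chr3:15634917-15639169, overlapping the pseudogene AT3G43730) gave 38.6% of the reads of the family in mat nrpd1+/- and 8.80% in nrpd1-/-. It had 19, 26 and 22 reads (2.35, 3.53 and 3.12 RPM) in nrpd1-/- and 5702, 5544 and 4140 reads (269, 288 and 249 RPM) in mat nrpd1+/-, an 89.7-fold lower level (log2 −6.49 ± 0.39, adjusted p = 2.20e-60). Without that insertion the family was still 13.6-fold lower. In 24-nt reads the same insertion had 14.4 ± 4.23 RPM in nrpd1-/- and 1743 ± 52.4 RPM in mat nrpd1+/-. One of the most abundant 21-nt sources among TEs with a paternal copy thus gave few reads without it, in both size classes.

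Helitrons showed a similar case. HELITRONY3 had 72.1, 107 and 78.4 RPM in nrpd1-/-, against 804, 833 and 753 RPM in mat nrpd1+/- (9.30-fold lower, log2 −3.22 ± 0.26 SE, adjusted p = 1.19e-33). Its insertion AT4TE09825 (chr4:2072130-2075641) gave 5.58% of the reads of the family in nrpd1-/- and 30.7% in mat nrpd1+/-, with 3.97, 6.78 and 3.83 RPM in nrpd1-/-, against 260, 241 and 231 RPM in mat nrpd1+/- (50.2-fold lower, log2 −5.65 ± 0.36). Without AT4TE09825 the family had 68.2, 99.8 and 74.5 RPM in nrpd1-/-, against 544, 592 and 522 RPM in mat nrpd1+/- (6.84-fold lower). Of its 139 tested insertions 137 were lower, 1 was higher and 1 was not called, but 136 of them reached the minimum of the filter in mat nrpd1+/- alone.

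Among the Gypsy retrotransposons, ATHILA2, a family of large elements of the pericentromere, had 55.2, 90.6 and 64.6 RPM in nrpd1-/-, against 750, 737 and 660 RPM in mat nrpd1+/- (10.2-fold lower, log2 −3.35 ± 0.26 SE, adjusted p = 5.70e-36), and 185 of its 188 tested insertions were lower, with 182 of the 188 past the filter through mat nrpd1+/- alone. AT5TE43190, an ATHILA2 insertion named after its values were seen, kept 62, 64 and 73 reads in nrpd1-/-, against 220, 168 and 150 reads in mat nrpd1+/- from larger libraries, and was not called. It made up 13.2% of the ATHILA2 reads in nrpd1-/- and 1.31% in mat nrpd1+/-. ATGP1 fell less, with 135, 256 and 183 RPM in nrpd1-/-, against 490, 493 and 442 RPM in mat nrpd1+/- (2.48-fold lower, log2 −1.31 ± 0.24, adjusted p = 3.71e-08). The log2 fold change of ATGP1 turned to 1.43 with TMM factors over TEs and 0.80 with DESeq2. The Copia family ATCOPIA53 had 0, 0 and 1 reads in nrpd1-/-, against 46, 51 and 28 reads in mat nrpd1+/- (log2 −5.35 ± 0.75, adjusted p = 2.47e-12), and 97.0% of its reads in mat nrpd1+/- came from 1 insertion, AT4TE19470.

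**Figure D3:**
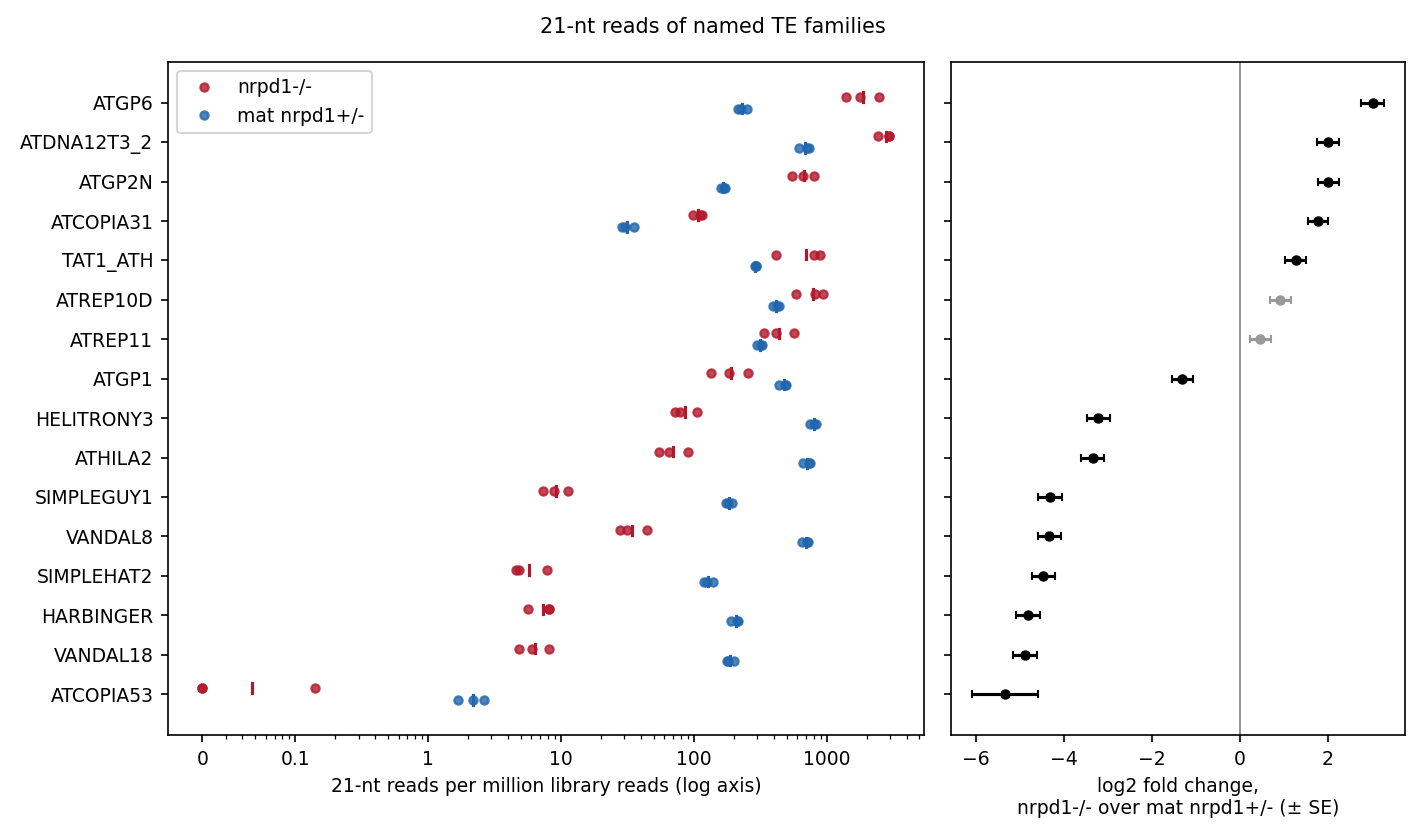
Left, 21-nt RPM of the named families on a log axis, each point being 1 library, with nrpd1-/- above mat nrpd1+/- within a family, short bars at the means and values of 0 drawn at the left end. Right, the log2 fold change with its SE, grey where not called. The points of the groups lie apart in every family shown, with nrpd1-/- to the right in ATGP6, ATDNA12T3_2, ATGP2N, ATCOPIA31, TAT1_ATH, ATREP10D and ATREP11.

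Single insertions could lose their 21-nt reads completely, as far as the depth shows. The 8 insertions with the largest fitted falls all had 0 reads in each nrpd1-/- library. A count of 0 in a whole group makes the fitted fold change large, so this ranking favours such insertions. Their bounds, 28.5 to 83.2-fold, lie below the fitted 89.7-fold fall of AT3TE63215, so they are not shown to be the largest falls. AT1TE53935 (ATREP4, chr1:16364037-16364385) had 261, 219 and 153 reads in mat nrpd1+/-, and was at least 83.2-fold lower in nrpd1-/-, taking 3 reads over the group as the limit that a count of 0 allows. AT1TE45650, the helitron printed above without a repeated 21-mer, had 128, 114 and 101 reads in mat nrpd1+/- (at least 45.1-fold lower), and AT4TE36590 (ATREP10D, chr4:8263795-8264885) had 122, 115 and 98 (at least 44.0-fold lower). AT2TE24225 had 118, 98 and 85 reads in mat nrpd1+/- (at least 39.6-fold lower). The other 4 were retrotransposon insertions: AT2TE10305 (ATGP5, chr2:2227313-2227560), AT5TE51230 (ATHILA4D_LTR, chr5:14319331-14319727), AT2TE18830 (ATLANTYS1, chr2:4490651-4500765) and AT1TE45315 (ATGP3, chr1:13818560-13823827), at least 32.5, 31.8, 30.2 and 28.5-fold lower. All 8 had at least 1 24-nt read in nrpd1-/-, at mean levels of 0.260 to 1.34 RPM, against 30.9 to 135 RPM in mat nrpd1+/-. For AT5TE51230 (3, 3 and 0 reads) and AT2TE10305 (2, 4 and 1 reads) these means lay below the 0.372 to 0.425 RPM that a count of 0 allows in a single library. Over the group, both had more than the 3 reads taken as the limit above. Such limits cover counting error only.

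Against this loss, Gypsy elements of the ATGP6 and ATGP2N families had more 21-nt reads without NRPD1. ATGP6 had 1409, 2477 and 1771 RPM in nrpd1-/-, against 215, 253 and 227 RPM in mat nrpd1+/- (8.13-fold higher, log2 3.02 ± 0.26 SE, adjusted p = 5.02e-29). All 5 tested insertions of its 23 were higher, by log2 2.33 to 3.16. ATGP2N had 552, 664 and 805 RPM in nrpd1-/-, against 169, 160 and 172 RPM in mat nrpd1+/- (log2 2.01 ± 0.24, adjusted p = 3.60e-16), with 31 of 33 tested insertions higher and 2 not called. Both rises were found in every library. Over all tested insertions 8.4% were higher. Reads that fit several copies were placed at 1 of them, so the insertions of a family are not replicates of its rise.

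AT3TE63870 gave 60.1% ± 4.79 of the ATGP6 reads in nrpd1-/- and 53.8% ± 4.78 in mat nrpd1+/-. This insertion (chr3:15797694-15798633, 940 bp, overlapping no annotated gene) had 924, 1440 and 1002 RPM in nrpd1-/-, against 104, 145 and 128 RPM in mat nrpd1+/- (8.95-fold higher, log2 3.16 ± 0.43 SE, adjusted p = 4.48e-13). AT4TE09705 (chr4:2038650-2039623) had 260, 600 and 438 RPM in nrpd1-/-, against 56.0, 52.6 and 49.7 RPM in mat nrpd1+/- (log2 3.04 ± 0.34). AT3TE51685 (chr3:12547952-12555918) had 155, 307 and 219 RPM in nrpd1-/-, against 31.4, 31.0 and 26.9 RPM in mat nrpd1+/- (log2 2.93 ± 0.29). Replicate 2 was the highest and replicate 1 the lowest nrpd1-/- library in all 3 insertions, and even the lowest lay above every mat nrpd1+/- library.

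These ATGP6 insertions kept their 24-nt reads as well, unlike the bulk of TEs. AT3TE63870 had 763 ± 276 RPM at 24 nt in nrpd1-/- and 91.1 ± 12.5 RPM in mat nrpd1+/- (log2 3.07), and AT4TE09705 had 390 ± 120 RPM in nrpd1-/- and 117 ± 4.56 RPM in mat nrpd1+/- (log2 1.74). AT3TE51685 had 114 ± 36.8 RPM at 24 nt in nrpd1-/- and 103 ± 4.63 RPM in mat nrpd1+/- (log2 0.15, adjusted p = 0.285). At 24 nt ATGP6 as a family had 1438 ± 485 RPM in nrpd1-/- and 453 ± 20.7 RPM in mat nrpd1+/-, and ATGP2N 572 ± 29.6 RPM in nrpd1-/- and 403 ± 21.5 RPM in mat nrpd1+/-. In ATGP2N, 9 of its 33 tested insertions were lower at 24 nt, against 98.7% of all insertions tested at that size. The 2 that were higher, against 0.349% of all, were AT3TE70530 (chr3:17393358-17395137) and its neighbour AT3TE70525. AT3TE70530 had 144, 190 and 217 RPM at 21 nt in nrpd1-/-, against 38.3, 37.5 and 39.9 RPM in mat nrpd1+/- (log2 2.25 ± 0.28).

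ATCOPIA31 and TAT1_ATH were the other families of some abundance that were higher. ATCOPIA31 had 115, 99.3 and 111 RPM in nrpd1-/-, against 28.9, 30.2 and 35.8 RPM in mat nrpd1+/- (3.43-fold higher, log2 1.78 ± 0.22 SE, adjusted p = 5.87e-15). Both tested insertions were higher, but 99.1% of the 21-mers of each are repeated in the genome, so they are not separate replicates. AT1TE38210 alone gave 70.9% of the family in nrpd1-/- and 68.1% in mat nrpd1+/-. The 24-nt reads of ATCOPIA31 were 34.5 ± 11.2 RPM in nrpd1-/- and 39.2 ± 1.75 RPM in mat nrpd1+/-, so that this small family moved at 21 nt with overlapping 24-nt levels.

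TAT1_ATH had 416, 887 and 809 RPM in nrpd1-/-, against 287, 292 and 295 RPM in mat nrpd1+/- (2.42-fold higher, log2 1.27 ± 0.24 SE, adjusted p = 1.24e-07). Its insertions divided: 4 were higher, 6 lower and 3 not called. Most of the reads came from AT1TE69400 (chr1:21018771-21019194), with 265, 561 and 513 RPM in nrpd1-/-, against 160, 166 and 175 RPM in mat nrpd1+/- (log2 1.42 ± 0.34, adjusted p = 3.24e-05). The 24-nt sum of TAT1_ATH was lower, with 27.8 ± 7.44 RPM in nrpd1-/- and 352 ± 15.6 RPM in mat nrpd1+/-. At 24 nt 12 of its 13 tested insertions were lower, against 98.7% of all insertions tested at that size. AT1TE69400 itself was the exception, with 16.3 ± 4.87 RPM at 24 nt in nrpd1-/- and 9.71 ± 0.866 RPM in mat nrpd1+/- (log2 0.75, short of 2-fold). The fall of the 24-nt sum thus came from other insertions than the one with most 21-nt reads. The sixth family called higher was ATGP9LTR, a rare one named after its values were seen, with 35, 21 and 6 reads (4.34, 2.85 and 0.850 RPM) in nrpd1-/-, against 13, 12 and 17 reads (0.613, 0.623 and 1.02 RPM) in mat nrpd1+/-. Its groups overlapped, and none of its 7 insertions passed the filter.

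Both directions depended on the scale. With TMM factors over TEs, all 6 higher families were called again and 19 of the 278 lower ones, and the log2 fold change was −0.46 for HELITRONY3 and −0.60 for ATHILA2. Measured against genic 22-nt reads, the log2 fold changes were 2.15 for ATGP6, 1.15 for ATDNA12T3_2, 1.16 for ATGP2N, 0.91 for ATCOPIA31 and 0.42 for TAT1_ATH, and the last 2 were no longer called. Against microRNA entries they were 1.12 for ATGP6, 0.12 for ATDNA12T3_2, 0.14 for ATGP2N, −0.11 for ATCOPIA31 and −0.60 for TAT1_ATH, and ATGP6 was the only family still called higher. VANDAL8 was at −5.21 against genic 22-nt reads and −6.25 against microRNA entries, and the insertion AT3TE63870 at 2.28 and 1.25 on the same scales. A rise relative to the whole library was called in all 5 families. Only ATGP6 was called higher against both genic 22-nt reads and microRNA entries, and the read lengths counted in the latter are not stated.

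A pair of adjoining helitron insertions on chromosome 2 had more 21-nt reads while their families did not pass the call. AT2TE45635 (ATREP11, chr2:10644006-10644601) and AT2TE45640 (ATREP10D, chr2:10644602-10646056) both overlap the transcribed pseudogene AT2G25025. AT2TE45635 had 296, 500 and 367 RPM in nrpd1-/-, against 37.7, 43.7 and 56.0 RPM in mat nrpd1+/- (8.47-fold higher, log2 3.08 ± 0.33 SE, adjusted p = 1.32e-19). AT2TE45640 had 296, 454 and 414 RPM in nrpd1-/-, against 73.2, 72.3 and 77.5 RPM in mat nrpd1+/- (5.22-fold higher, log2 2.38 ± 0.33, adjusted p = 1.15e-12). Neither insertion had overlapping groups. Their 24-nt reads were higher too, at 2830 ± 693 RPM in nrpd1-/- and 279 ± 72.6 RPM in mat nrpd1+/- for AT2TE45635 (log2 3.34) and at 6388 ± 718 RPM in nrpd1-/- and 936 ± 146 RPM in mat nrpd1+/- for AT2TE45640 (log2 2.77).

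AT2TE45635 supplied 88.3% of all ATREP11 reads in nrpd1-/- and 14.5% in mat nrpd1+/-. Of the 68 tested ATREP11 insertions 64 were lower, against 87.8% of all tested insertions. The minimum of the filter was reached in mat nrpd1+/- alone by 64 of the 68, so this count adds little. The family sum moved little, with 339, 564 and 413 RPM in nrpd1-/-, against 323, 327 and 302 RPM in mat nrpd1+/- (log2 0.47 ± 0.23 SE). In ATREP10D, AT2TE45640 supplied 49.4% in nrpd1-/- and 17.9% in mat nrpd1+/-. There 54 of 64 tested insertions were lower, with 56 of the 64 past the filter through mat nrpd1+/- alone. The family had 591, 947 and 824 RPM in nrpd1-/-, against 435, 421 and 394 RPM in mat nrpd1+/- (log2 0.92 ± 0.24, short of 2-fold). Without nrpd1-/- replicate 1 this log2 fold change became 1.09 and was called. AT3TE54270 (ATREP10D, chr3:13265698-13267123) was another higher insertion, with 128, 252 and 237 RPM in nrpd1-/-, against 26.5, 22.8 and 29.5 RPM in mat nrpd1+/- (log2 2.97 ± 0.29), and it rose at 24 nt as well (log2 2.61). Without AT2TE45635 the ATREP11 sum was 5.31-fold lower in nrpd1-/-, and without AT2TE45640 the ATREP10D sums of the groups overlapped, with 295, 493 and 410 RPM in nrpd1-/-, against 362, 349 and 317 RPM in mat nrpd1+/-.

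ATDNA12T3_2 was the family with the most 21-nt reads without NRPD1. It had 2958, 2431 and 2968 RPM in nrpd1-/-, against 717, 620 and 737 RPM in mat nrpd1+/- (4.03-fold higher, log2 2.01 ± 0.26 SE, adjusted p = 1.31e-14). Of its 649 copies, 361 were tested, of which 316 were higher, 44 lower and 1 not called. Unlike in ATGP6, the 24-nt reads of the family were lower, with 368 ± 130 RPM in nrpd1-/- and 2349 ± 204 RPM in mat nrpd1+/-.

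The copies fell into kinds by length, a division made after the values were seen and given as a description. The 493 copies under 100 bp had 2226, 1816 and 2248 RPM in nrpd1-/-, against 385, 314 and 415 RPM in mat nrpd1+/- (5.65-fold higher), a sum over all copies that no filter touches. Of the 285 tested 283 were higher and 1 lower, but 164 of the 285 reached the minimum of the filter in nrpd1-/- alone, where they had to be high, and 119 in both groups. Their 24-nt reads were few and overlapped, with 257, 226 and 119 RPM in nrpd1-/- and 319, 187 and 191 RPM in mat nrpd1+/-. The 156 copies of 100 bp or longer had 733, 615 and 720 RPM at 21 nt in nrpd1-/-, against 332, 306 and 322 RPM in mat nrpd1+/-, with 43 lower and 33 higher of the 76 tested, and 29 of those 33 were 500 to 600 bp long. At 24 nt the longer copies had 208, 191 and 101 RPM in nrpd1-/-, against 2248, 2132 and 1971 RPM in mat nrpd1+/- (12.7-fold lower). The fall of the 24-nt reads of the family was thus almost wholly that of its longer copies.

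The short copies were also clustered. Of the 649 copies 387 lay on chromosome 3 and 158 on chromosome 5, and 182 of those on chromosome 3 lay in a single stretch of 100 kb. Neighbouring copies within 600 bp of each other started a median of 502 bp apart. Among copies under 100 bp with another copy within 600 bp, 274 of 275 tested were higher and 1 was not called, with 159 of the 275 past the filter through nrpd1-/- alone, so these counts are given as a description. Among copies with no other within 600 bp, 37 were lower and 30 higher of 67 tested. By chromosome, 212 copies were higher and 3 lower on chromosome 3, and 90 higher and 12 lower on chromosome 5. On chromosome 1, 6 were higher and 16 lower, on chromosome 2, 3 higher and 8 lower, and on chromosome 4, 5 higher and 5 lower.

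Each of the printed short copies gave a small part of this. AT3TE58340 had 95, 54 and 47 reads (11.8, 7.32 and 6.66 RPM) in nrpd1-/-, against 17, 15 and 11 reads (0.802, 0.779 and 0.663 RPM) in mat nrpd1+/- (log2 3.51 ± 0.27 SE, adjusted p = 2.09e-37). AT5TE45275 had 7.44, 7.32 and 7.08 RPM in nrpd1-/-, against 0.661, 0.623 and 0.783 RPM in mat nrpd1+/- (log2 3.39 ± 0.29). AT3TE56315, AT3TE58425 and AT3TE55680 had log2 fold changes of 3.44, 3.16 and 3.16. Since the sequences differ at few bases, the family sum is better determined than any of these. AT2TE13535, whose sequence is unlike theirs, was the exception with fewer reads in nrpd1-/-. Tandem arrays of 5S ribosomal RNA genes are known from the same pericentromeres, and the annotation used here lists none of them, so whether the short copies overlap such arrays was not tested.

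**Figure D4:**
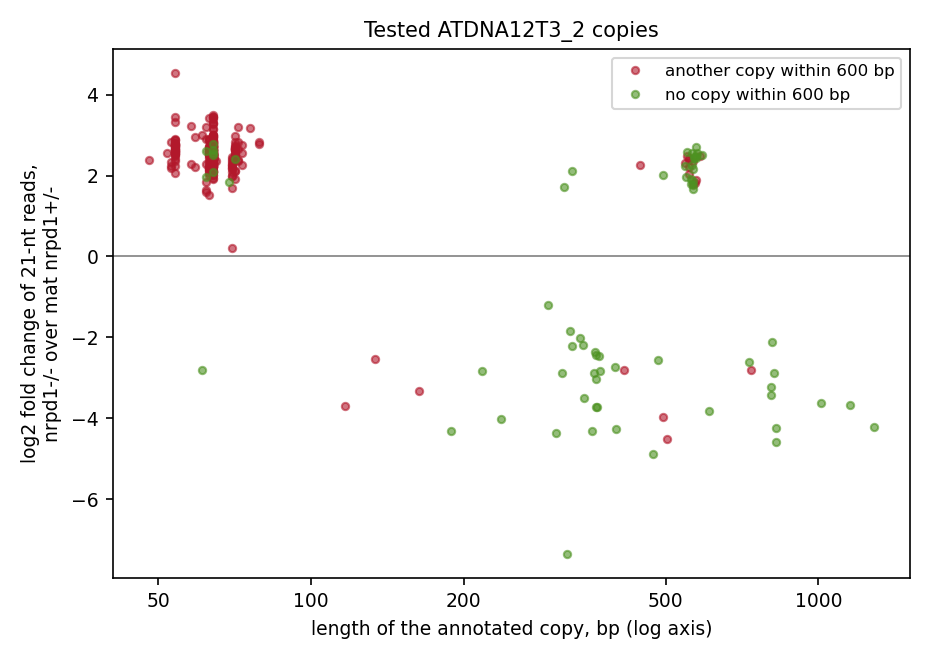
Log2 fold change at 21 nt (nrpd1-/- over mat nrpd1+/-) of the 361 tested ATDNA12T3_2 copies against their length in bp (log axis), coloured by the presence of another copy within 600 bp. Copies under 100 bp lie above 0 except AT2TE13535, and longer ones lie on both sides.

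The make-up of the 21-nt TE reads, which needs no library size, changed accordingly. TE groups are sets of families by the start of their names, and shares are of the 21-nt TE reads of a library. ATDNA12T3_2 held 30.6, 18.3 and 24.8% in nrpd1-/-, against 2.78, 2.39 and 3.20% in mat nrpd1+/-. The ATGP and ATLANTYS Gypsy families held 25.5% ± 1.83 in nrpd1-/- and 7.78% ± 0.162 in mat nrpd1+/- (SD, n = 3 each). ATREP helitrons held 16.9% ± 1.47 in nrpd1-/- and 11.1% ± 0.127 in mat nrpd1+/-. These 3 groups together with the SINEs (0.759% ± 0.114 in nrpd1-/- and 0.552% ± 0.0584 in mat nrpd1+/-) were the ones with a larger share without NRPD1 and no overlap between the groups.

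VANDAL elements held 4.54% ± 0.423 in nrpd1-/- and 16.3% ± 0.0682 in mat nrpd1+/-, and ATHILA elements 4.27% ± 0.204 in nrpd1-/- and 14.3% ± 0.199 in mat nrpd1+/-. HELITRON and HELITRONY elements held 3.14% in nrpd1-/- and 8.80% in mat nrpd1+/-, En/Spm elements 1.30% in nrpd1-/- and 5.99% in mat nrpd1+/-, and LINEs 1.88% in nrpd1-/- and 5.80% in mat nrpd1+/-. All of these groups had smaller shares without NRPD1. Copia elements held 3.90% in nrpd1-/- and 5.97% in mat nrpd1+/-, ATMU with ARNOLDY and BRODYAGA 3.22% in nrpd1-/- and 5.87% in mat nrpd1+/-, hAT elements 1.01% in nrpd1-/- and 2.87% in mat nrpd1+/-, and Harbinger elements 0.367% in nrpd1-/- and 3.32% in mat nrpd1+/-. The remaining families together overlapped, with 8.68% ± 1.67 in nrpd1-/- and 8.50% ± 0.176 in mat nrpd1+/-. In RPM the Harbinger group was 19.1-fold lower in nrpd1-/-, the En/Spm group 9.76-fold, the VANDAL group 7.63-fold, the ATHILA group 7.17-fold and the ATREP group 1.40-fold.

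**Figure D5:**
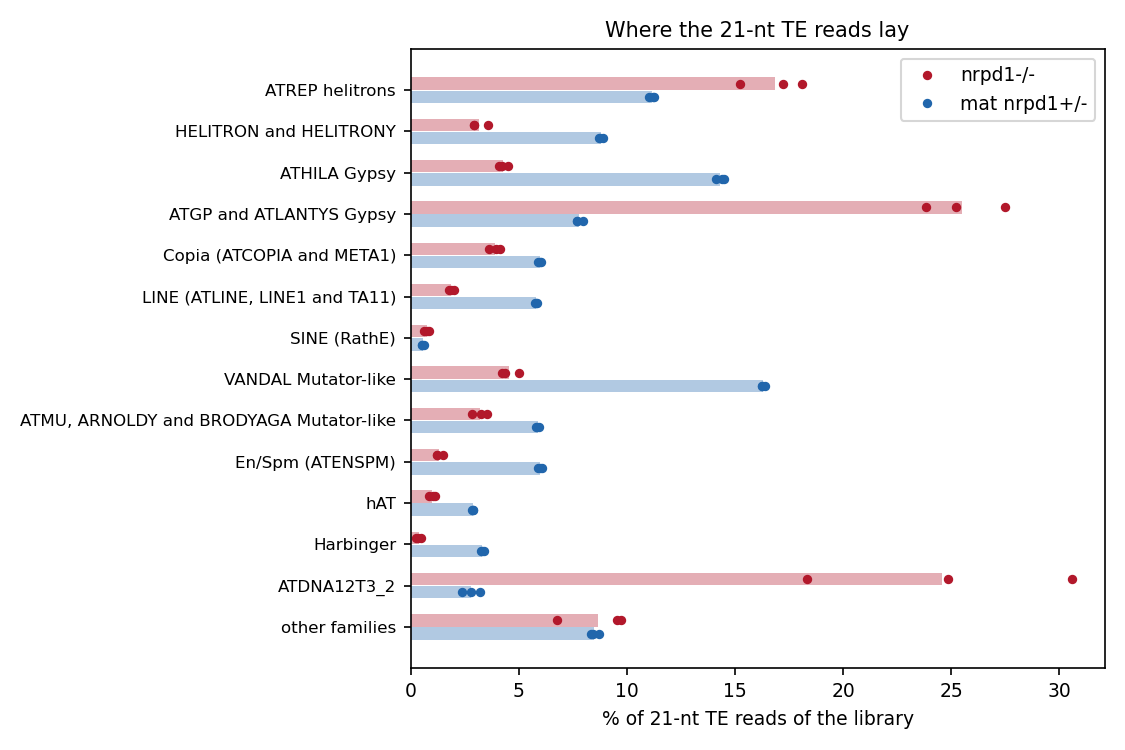
Share of the 21-nt TE reads (%) by TE group. Bars are means and points are single libraries, nrpd1-/- above mat nrpd1+/- within a group. ATDNA12T3_2 and the ATGP and ATLANTYS group stand out in nrpd1-/-, with means of 24.6% and 25.5%, against 2.79% and 7.78% in mat nrpd1+/-.

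Counts of insertions are read against the 87.8% lower and 8.4% higher over all tested insertions, most of which passed the filter through mat nrpd1+/- alone. Lower insertions made up 991 of 1020 tested in ATHILA (7 higher), 446 of 469 in VANDAL (1 higher), 252 of 257 in En/Spm (3 higher), 182 of 185 in hAT (3 not called) and 76 of 77 in Harbinger (1 not called). In ATREP 679 of 721 were lower and 23 higher although the group as a whole lost few reads, and in the ATGP and ATLANTYS families 350 of 421 were lower and 46 higher although the group gained reads. SINE insertions were the least uniform, with 18 lower, 5 higher and 17 not called of 40. The larger read shares of ATREP and of ATGP and ATLANTYS were held by few insertions: without the 10 most abundant insertions of all TEs, the share of ATREP was 0.968 percentage points larger in nrpd1-/- than in mat nrpd1+/-, against 5.70 with them, and that of ATGP and ATLANTYS 5.29 points larger, against 17.7. Those 10 were picked by their level in these same libraries, so a smaller difference partly follows from the choice and only its size is described.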

How the data were processed

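Small RNAs of hand-dissected endosperm were sequenced from pooled seeds of crosses between several individuals. Per the study's methods, the authors trimmed adapters with cutadapt, removed duplicates by random adapter bases, aligned with Bowtie 1.2.2 (2 mismatches, 1 best alignment) to Col-0 (TAIR10) and a Ler pseudo-genome, split reads by length and deposited raw counts per TE or gene. The deposited tables also hold the authors' fold changes and p-values from DESeq2, which were not used, nor were 384 other columns of single libraries. The incomplete genic 21-nt table of nrpd1-/- was left out.

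The 6 columns of 21-nt TE counts were joined by feature name. Since the tables have no entries outside TEs, the library size was the number of quality-filtered reads the study lists per library, without TMM factors, and RPM are reads in every 1000000 of these. Counts were filtered with filterByExpr and tested with edgeR 4.0.16 (R 4.3.3; glmQLFit and glmQLFTest, genotype as the only term), with Benjamini-Hochberg adjustment over all insertions or families. A call took an adjusted p of at most 0.05 and a 2-fold change. SE is the fold change over the root of the F statistic and is approximate. Single values were compared by exact permutation tests (scipy 1.17.1). The scripts were tested on simulated data. Alternatives were DESeq2 1.42.0, 4 other library sizes, no filter, no minimum fold, a replicate block and leaving out each library.

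Named were the 10 most abundant insertions and families, and, among called ones with a mean of at least 20 reads and no overlap between groups, the 8 insertions and 6 families with the largest fitted fall and rise (5 families qualified for a rise). Members, lists and tests were chosen with earlier results of these data known. Positions are 1-based, and all 427 mature microRNA entries lie at the same place in TAIR10.1. Per the study's methods, replicates of a genotype came from separate sets of parent plants. The labels give no day or batch. Intervals and limits cover counting error only.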

Additional observations from a re-analysis of the deposited data

How the results depend on the processing

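The choice of library size changed the results most. For insertions, 807 were lower and 1150 higher with TMM factors over TEs, 1554 lower and 1495 higher with DESeq2 (which tested 22127, without the filter), 3650 lower and 575 higher with TE reads, 5426 lower and 328 higher with genic 22-nt reads, and 6124 lower and 31 higher with microRNA entries, against 4636 and 444. With no filter 8926 were lower and 679 higher. For families, 19 were lower and 72 higher with TMM factors, 70 and 40 with DESeq2, 17 higher with TE reads, 4 higher with genic 22-nt reads and 1 higher with microRNA entries, against 278 and 6, and 12 were higher with no minimum fold. Log2 fold changes that turned were those of ATGP1 (1.43 with TMM factors, 0.80 with DESeq2), ATREP11 (−0.40 on genic 22-nt reads, −1.44 on microRNA entries), and, on microRNA entries, ATREP10D (−0.98), TAT1_ATH (−0.60), its insertion AT1TE69400 (−0.45) and ATCOPIA31 (−0.11). The cause was not tested.

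Leaving out 1 library at a time gave 3535 to 6430 lower and 433 to 522 higher insertions, and 273 to 284 lower and 6 to 8 higher families. With a replicate block 4619 insertions were lower and 438 higher, and 278 families were lower and 6 higher. To see whether libraries with the same number deviated together, the group mean of log2 RPM was first subtracted at each insertion. These deviations, not the levels themselves, correlated at r = 0.002, 0.090 and 0.038 over 3059 insertions for libraries with the same number. The numbers were therefore not taken as pairs, and not every library correlated best with its own number.

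Without the 10 most abundant insertions, the difference in share (nrpd1-/- minus mat nrpd1+/-, percentage points) was 0.968 for ATREP, −3.78 for HELITRON and HELITRONY, −8.96 for ATHILA, 5.29 for ATGP and ATLANTYS, −0.745 for Copia, −3.41 for LINE, 0.494 for SINE, −9.52 for VANDAL, −1.59 for ATMU with ARNOLDY and BRODYAGA, −4.42 for En/Spm, −1.58 for hAT, −2.95 for Harbinger and 31.4 for ATDNA12T3_2, each with its direction kept. The other families, whose groups overlapped, turned to −1.20, against 0.188 with those insertions.

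Depth limits the nrpd1-/- side: a count of 0 there allows 0.372 to 0.425 RPM per library, against 0.142 to 0.181 RPM in mat nrpd1+/-.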
